A study of Mus musculus with 12 samples.

Results

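The 36 genes described here code for proteins of the thin filament, the Z-disc and the M-band of skeletal muscle, together with the myosin light chains, the myosin-binding proteins and several factors that assemble or repair the sarcomere. They were chosen by name, and older names in the scanner files were resolved through the accession of each probe (Xirp1 appears there as Cmya1, Xirp2 as Cmya3, Igfn1 as 9830123M21Rik and Mybpc1 as 8030451F13Rik). All 36 were on the array, among 27597 genes or names, and 35 of them were bright enough to be tested, among 15226 genes. Myoz3, which codes for the calsarcin of fast fibres, had a single probe that was well above background on 3 of 12 arrays and was not tested. RNA came from the whole gastrocnemius, a calf muscle, of adult male CD1 mice. The groups were wild-type (WT) control muscle, WT muscle after 14 days of denervation, Smad4 knockout (KO) control muscle and KO muscle after 14 days of denervation, with 3 arrays in each. Denervation cuts the nerve supply, and the muscle then wastes. Smad4 is the shared partner of the Smad proteins that carry TGF-beta and BMP signals to the nucleus. The labels do not say which cells lost Smad4, by which promoter or Cre, or at what age. The study's design text states that each experiment used other animals, and 3 experiments were made per group.

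A sarcomere is the contractile unit between neighbouring Z-discs. Thin filaments of actin are anchored at the Z-disc by alpha-actinin, run along nebulin and are capped at their ends by CapZ and the tropomodulins. Thick filaments of myosin are held in register by titin and by the myomesins of the M-band, and each myosin head carries an essential and a regulatory light chain. Loss of the nerve is known to cause wasting with loss of contractile protein and to bring back genes of embryonic muscle.

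All levels below are log2 of the array's processed signal minus the 75th percentile of that array, so a level of 0 is the signal that 75% of probes do not exceed. Differences are those of group means on that log2 scale, given ± SE, over 3 arrays per group. A gene is said to have risen, fallen or been called where limma's test across all 15226 genes gave a Benjamini-Hochberg adjusted p under 0.05. Between 50.9% and 57.0% of spots were well above background on an array, no spot was saturated, and arrays of one group correlated at 0.974 to 0.985. The 12 arrays lay on 4 slides scanned on 2 days, and each slide held arrays of more than 1 group. The groups were not balanced over slides and days. All WT control arrays were scanned on day 1, and WT denervated replicates 2 and 3 on day 2, on a slide without a WT control array. Smad4 itself fell in KO muscle, with differences of -1.46 ± 0.15 in control muscle (adjusted p = 0.0185) and -1.42 ± 0.15 in denervated muscle (adjusted p = 0.00159), so each KO group carried less Smad4 RNA than its WT group. In RNA of whole muscle, fewer cells of a type and less RNA per cell cannot be told apart.

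More of the sarcomere genes fell than rose after denervation, in KO more than in WT by count. In WT muscle 18 of 35 members were called, against 39.3% of all genes: 5 rose, where 18.7% of all genes did, and 13 fell, where 20.6% of all genes did. In KO muscle 27 of 35 were called, against 46.9% of all genes: 3 rose, where 23.7% of all genes did, and 24 fell, where 23.2% of all genes did. Most members are bright, and bright genes fell more often than all genes did. Of the 658 genes with a mean level of 5 or more, which include 26 members, 12.5% rose and 28.7% fell in WT. In KO 9.88% of these bright genes rose and 41.9% fell. The median difference of the 35 members was -0.26 in WT and -0.86 in KO, beside -0.02 and 0.00 over all genes tested. The WT median depended on the scaling: with quantile normalization it was -0.04 with 18 of 35 members below 0, and with the deposited series matrix 0.02 with 17 below 0, where the 75th percentile gave 23. The risers were a light chain of embryonic muscle (Myl4), the actin cross-linker Flnc and the Z-disc protein Igfn1 in both genotypes, and Pdlim3 and Xirp1 in WT. The deepest falls among members in KO were those of the slow light chain Myl2, the Z-disc adaptor Ldb3, cardiac actin (Actc1) and the myosin light chain kinase Mylk2, and in WT those of Mylk2 and Actc1. Of the 35, 13 fell in both genotypes, 3 rose in both, Xirp1 rose in WT and fell in KO, Pdlim3 was called in WT alone, 10 were called lower in KO alone and 7 in neither. No member passed the test of the difference between the genotypes' responses, so being called in one genotype alone does not show that the responses differ.

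**Figure D1:**
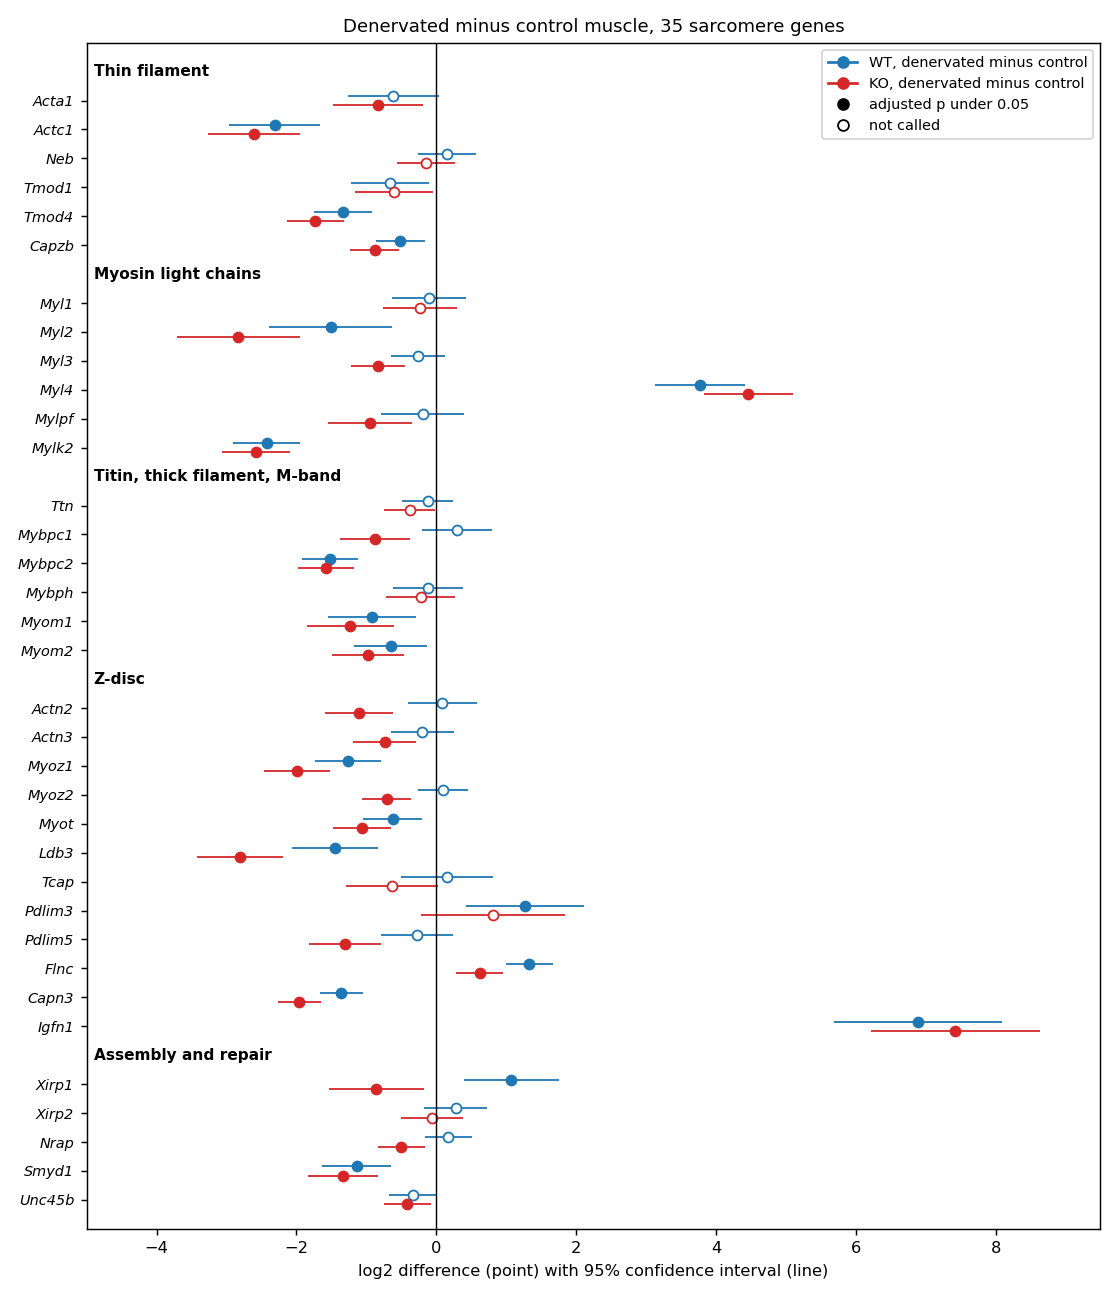
Difference between denervated and control muscle for the 35 tested members, grouped by role, as a log2 difference (x axis) with its 95% confidence interval, in WT (blue) and KO (red); filled points have an adjusted p under 0.05. Igfn1 and Myl4 lie far to the right in both genotypes, most other members lie left of 0 in KO, and Xirp1 lies on opposite sides of 0 in WT and KO; the KO value of Igfn1 rests on a control level below the detection limit.

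The promoter windows of 9 members hold a CArG or a MEF2 box, motifs known from muscle genes, and a stretch of each is shown with its motif. Of these 9, 7 were called lower in KO, a share close to the 24 of 35 over all members tested. RefSeq promoter windows (build GRCm38.p6, 250 bases before to 50 after each transcription start) matched 27 of the 36 members. A CArG box, the sequence that serum response factor binds, stood in the window of 5 of these 27 members, beside 1.81% of all 27025 genes with a window. Both motifs named here read the same on both strands, and they can overlap neither each other nor the E-box CANNTG. The 5 stretches follow in the sense direction of the gene, 5′ to 3′, with the box in capitals.
Acta1, chr8:123894814-123894873, minus strand: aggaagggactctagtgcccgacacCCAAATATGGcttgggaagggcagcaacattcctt
Actc1, chr2:114052888-114052947, minus strand: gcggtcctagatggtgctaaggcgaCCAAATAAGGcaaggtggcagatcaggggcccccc
Ldb3, chr14:34588682-34588741, minus strand: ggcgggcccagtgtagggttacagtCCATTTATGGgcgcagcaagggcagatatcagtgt
Myl3, chr9:110763568-110763627, plus strand: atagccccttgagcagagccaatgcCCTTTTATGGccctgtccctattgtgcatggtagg
Myom1, chr17:71019433-71019492, plus strand: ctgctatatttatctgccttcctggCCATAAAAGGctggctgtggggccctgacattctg
The boxes began 47 to 109 bases before the transcription start. All 5 genes were called lower in denervated KO muscle, as were 24 of the 35 members, at -0.83 (Acta1), -2.61 (Actc1), -2.80 (Ldb3), -0.84 (Myl3) and -1.23 (Myom1), and 3 of them, Actc1, Ldb3 and Myom1, in denervated WT muscle. With quantile normalization Acta1 (-0.07) and Myl3 (-0.21) were no longer called in KO. A MEF2 box, which the MEF2 factors bind, stood in the windows of 4 members, beside 0.636% of all such genes, and is in capitals in the next stretches.
Capn3, chr2:120463496-120463555, plus strand: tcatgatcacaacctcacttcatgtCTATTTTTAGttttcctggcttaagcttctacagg
Myoz2, chr3:123034988-123035045, minus strand: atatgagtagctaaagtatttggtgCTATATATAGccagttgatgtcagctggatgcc
Ttn, chr2:76982679-76982738, minus strand: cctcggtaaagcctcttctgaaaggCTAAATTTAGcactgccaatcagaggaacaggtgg
Xirp2, chr2:67445903-67445962, plus strand: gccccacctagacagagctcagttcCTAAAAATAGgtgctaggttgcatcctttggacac
Of these 4, Capn3 fell in both genotypes and Myoz2 in KO, while Ttn and Xirp2 were called in neither. The E-box CANNTG stood in 22 of the 27 members and in 74.99% of all such genes. A match of letters is a description of the window and not evidence of binding.

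Among thin-filament genes none rose. Acta1, the alpha-actin of adult skeletal muscle, had levels of 8.43, 8.43 and 8.64 in WT control, 6.997, 8.42 and 8.25 in WT denervated, 8.67, 8.76 and 8.68 in KO control and 7.76, 7.92 and 7.94 in KO denervated muscle. In WT a single denervated array lay far below the others, and the difference of -0.61 ± 0.29 did not pass the test (adjusted p = 0.121). In KO every denervated array lay below every control array, and Acta1 fell (-0.83 ± 0.29), or 1.78-fold (adjusted p = 0.0367). Actc1, the cardiac alpha-actin that skeletal muscle carries during development, fell further, from 5.37, 6.13 and 5.38 to 3.94, 2.96 and 3.05 in WT and from 5.87, 5.59 and 5.73 to 3.25, 2.69 and 3.44 in KO. The differences were -2.31 ± 0.30 in WT (adjusted p = 0.000148), or 4.97-fold, and -2.61 ± 0.30 in KO (adjusted p = 4.70e-05), or 6.09-fold, with no overlap between denervated and control arrays. Its probe lies at chr2:113739716-113740639 and that of Acta1 at chr8:126778387-126778446 on mouse build mm8. The actins are close in sequence, and whether either probe also bound RNA of another actin was not tested.

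The caps of the thin filament fell as well. Tmod4, the tropomodulin of fast muscle that caps the pointed end, had levels of 6.37, 6.45 and 6.51 in WT control, 5.21, 4.92 and 5.20 in WT denervated, 6.19, 6.58 and 6.21 in KO control and 4.20, 4.72 and 4.86 in KO denervated muscle. Denervated arrays were low in both genotypes without overlap, with differences of -1.33 ± 0.19 in WT and -1.73 ± 0.19 in KO (adjusted p = 0.000260 and 3.17e-05). Tmod1, the other tropomodulin on the list, changed in the same direction without passing the test (-0.66 ± 0.25 in WT, -0.60 ± 0.25 in KO). Capzb, the beta subunit of the barbed-end cap CapZ, had levels of 5.82, 5.68 and 5.86 in WT control, 5.23, 5.25 and 5.34 in WT denervated, 5.45, 6.02 and 5.80 in KO control and 4.80, 4.78 and 5.05 in KO denervated muscle. It fell in both genotypes (-0.52 ± 0.16 in WT and -0.88 ± 0.16 in KO, adjusted p = 0.0242 and 0.00102), and its denervated arrays were below its control arrays in each genotype. The WT call of Capzb ended with slide as a fixed block (-0.34, adjusted p = 0.202) and when denervated array 1 or 2 or control array 1 or 3 of WT was dropped (adjusted p up to 0.0724, differences -0.57 to -0.48 over the 12 fits that each left out 1 array). The KO call of Acta1 ended with slide as a fixed block (-0.71, adjusted p = 0.0621) and when any 1 of the 6 KO arrays was dropped (adjusted p up to 0.0914, differences -0.87 to -0.78).

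The myosin light chains split by isoform. Myl4, the essential light chain of embryonic skeletal muscle and of the atria, rose from 0.93, 0.68 and 1.04 to 5.35, 4.45 and 4.17 in WT and from 0.39, 0.46 and 0.77 to 5.31, 4.55 and 5.15 in KO. The rise was 3.77 ± 0.29 in WT (adjusted p = 3.82e-06), or 13.7-fold, and 4.46 ± 0.29 in KO (adjusted p = 1.08e-06), or 22.1-fold. Every denervated array was far above every control array, and the second Myl4 probe gave 3.74 and 4.30. Its probe lies at chr11:104400198-104400568 (mm8). Myl2, the regulatory light chain of slow fibres and the ventricle, went the other way, with levels of 6.50, 6.34 and 6.74 in WT control, 5.30, 4.55 and 5.19 in WT denervated, 6.54, 6.97 and 6.52 in KO control and 4.96, 3.51 and 3.07 in KO denervated muscle. It fell in both genotypes (-1.51 ± 0.40 in WT and -2.83 ± 0.40 in KO, adjusted p = 0.0117 and 0.000200), and the KO denervated arrays ranged widely. Mylk2, the kinase that phosphorylates the regulatory light chain in skeletal muscle, had levels of 6.71, 6.70 and 7.05 in WT control, 4.31, 4.81 and 4.06 in WT denervated, 6.71, 6.86 and 6.52 in KO control and 3.80, 4.43 and 4.14 in KO denervated muscle. It was the lowest-moving member in WT at -2.43 ± 0.22, a 5.38-fold fall, with -2.58 ± 0.22 in KO (adjusted p = 1.21e-05 and 6.42e-06).

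At their brightest probes the remaining light chains moved less than Myl2 and Myl4. Myl3, the essential light chain of slow fibres, had levels of 7.62, 7.36 and 7.85 in WT control, 7.29, 7.56 and 7.21 in WT denervated, 7.76, 7.93 and 7.78 in KO control and 6.80, 7.27 and 6.89 in KO denervated muscle. WT arrays overlapped (-0.26 ± 0.18, adjusted p = 0.272), while KO denervated arrays lay below KO control arrays (-0.84 ± 0.18, adjusted p = 0.00260). A second, much dimmer Myl3 probe gave larger falls of -1.69 in WT and -1.84 in KO, with no overlap in either. Mylpf, the regulatory light chain of fast fibres, had levels of 7.69, 8.42 and 8.92 in WT control, 7.90, 8.47 and 8.08 in WT denervated, 8.58, 8.77 and 8.82 in KO control and 7.56, 7.86 and 7.92 in KO denervated muscle. It fell in KO (-0.95 ± 0.27, adjusted p = 0.0144) and overlapped in WT (-0.19 ± 0.27); without KO denervated replicate 1 the KO call ended, with an adjusted p of 0.0504. Myl1, the essential light chain of fast fibres, was called in neither genotype (-0.10 ± 0.24 and -0.23 ± 0.24), although its second probe lay lower without overlap in both (-0.71 and -1.07).

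**Figure D2:**
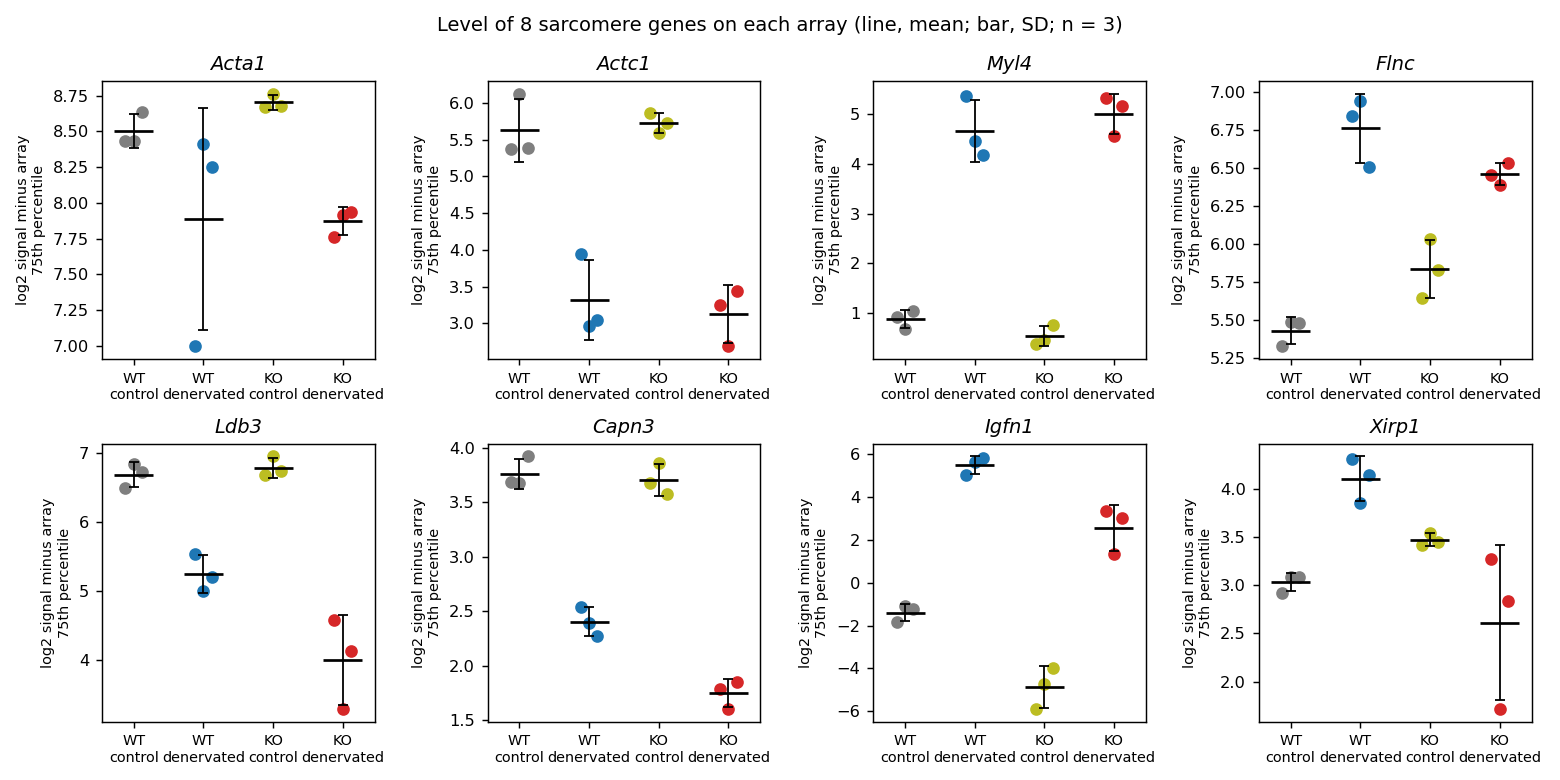
Level of 8 members on each of the 12 arrays, on the log2 scale relative to each array's 75th percentile (y axes differ between panels), with the mean as a line and the SD as a bar over 3 arrays. Myl4, Flnc and Igfn1 are higher after denervation in both genotypes, Actc1, Ldb3 and Capn3 lower, 1 WT denervated array is low for Acta1, and the KO denervated arrays of Xirp1 lie below the WT denervated ones.

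Mybpc2, the myosin-binding protein C of fast fibres, fell in both genotypes. Its levels were 7.94, 7.93 and 8.33 in WT control, 6.22, 6.66 and 6.77 in WT denervated, 8.10, 8.25 and 8.31 in KO control and 6.50, 6.84 and 6.56 in KO denervated muscle. Denervated arrays were low in both genotypes by nearly the same amount (-1.51 ± 0.18 and -1.58 ± 0.18, adjusted p = 8.76e-05 and 4.83e-05). Mybpc1, its slow-fibre counterpart, had levels of 6.03, 6.18 and 6.01 in WT control, 6.64, 6.45 and 6.01 in WT denervated, 6.16, 6.40 and 6.57 in KO control and 5.92, 5.06 and 5.53 in KO denervated muscle. Its WT arrays overlapped (0.29 ± 0.23), and it fell in KO (-0.88 ± 0.23, adjusted p = 0.00857). The related Mybph was called in neither genotype (-0.12 ± 0.23 and -0.22 ± 0.23).

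The M-band genes fell. Myom1, myomesin, had levels of 6.39, 6.49 and 6.44 in WT control, 4.67, 5.92 and 5.95 in WT denervated, 6.34, 6.77 and 6.49 in KO control and 5.33, 5.25 and 5.34 in KO denervated muscle. One WT denervated array was lower than all others, and the falls were -0.92 ± 0.28 in WT and -1.23 ± 0.28 in KO (adjusted p = 0.0247 and 0.00458). Its other probes lay lower too, by -0.18 and -0.85 in WT and by -0.87 and -2.65 in KO. Myom2, the M-protein of fast fibres, had levels of 8.14, 8.26 and 8.55 in WT control, 7.63, 7.74 and 7.61 in WT denervated, 8.72, 8.58 and 8.31 in KO control and 6.98, 7.999 and 7.71 in KO denervated muscle. It fell in both genotypes (-0.65 ± 0.24 in WT and -0.97 ± 0.24 in KO, adjusted p = 0.0468 and 0.00588), without overlap. The WT call of Myom2 ended with the replicate number as a block (-0.65, adjusted p = 0.0752) and with slide as a fixed block (-0.77, adjusted p = 0.0523). Leaving out any array but KO denervated replicate 1 or 2 ended it as well (adjusted p up to 0.147, differences -0.74 to -0.54). The WT call of Myom1 ended with slide as a fixed block (-0.97, adjusted p = 0.0565), with the mean of its probes (-0.65, adjusted p = 0.225) and when any 1 of the WT control arrays was dropped (adjusted p up to 0.0650, differences -1.14 to -0.50).

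Titin and nebulin, the giant proteins that span the sarcomere, were not called by their brightest probes, but each had several probes along the gene. Ttn, the molecular spring that runs from Z-disc to M-band, had levels of 7.92, 7.38 and 7.69 in WT control, 7.46, 7.66 and 7.51 in WT denervated, 7.30, 7.53 and 7.75 in KO control and 7.13, 7.10 and 7.20 in KO denervated muscle at its brightest probe (-0.12 ± 0.17 in WT and -0.38 ± 0.17 in KO, adjusted p = 0.595 and 0.0781). Over its 9 probes the denervation difference ran from -0.12 to 1.03 in WT, with 4 below 0, and from -0.96 to 0.44 in KO, with 8 below 0. In denervated muscle all 9 probes were lower in KO than in WT, by -0.92 to -0.05 with a median of -0.40, and for 5 of them no KO array reached a WT array. Neb, nebulin, the long protein bound along the thin filament, had levels of 7.005, 7.05 and 7.12 in WT control, 7.12, 7.50 and 7.0001 in WT denervated, 7.08, 7.28 and 7.38 in KO control and 6.92, 7.47 and 6.89 in KO denervated muscle at its brightest probe. All 5 Neb probes were above 0 in WT (0.15 to 0.85), and 4 of 5 were below 0 in KO (-0.53 to 1.24). The probe nearest the 3′ end, a dim one, stood apart from the rest with rises of 0.85 in WT and 1.24 in KO and no overlap in either. The KO differences depended on the scaling. With quantile normalization the brightest Neb probe was called higher in denervated KO muscle (0.42, adjusted p = 0.0356), and the brightest Ttn probe was at 0.25 without a call. The other probes were not tested with that scaling. Probes of one gene share RNA samples, so they are not replicates of a condition.

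**Figure D3:**
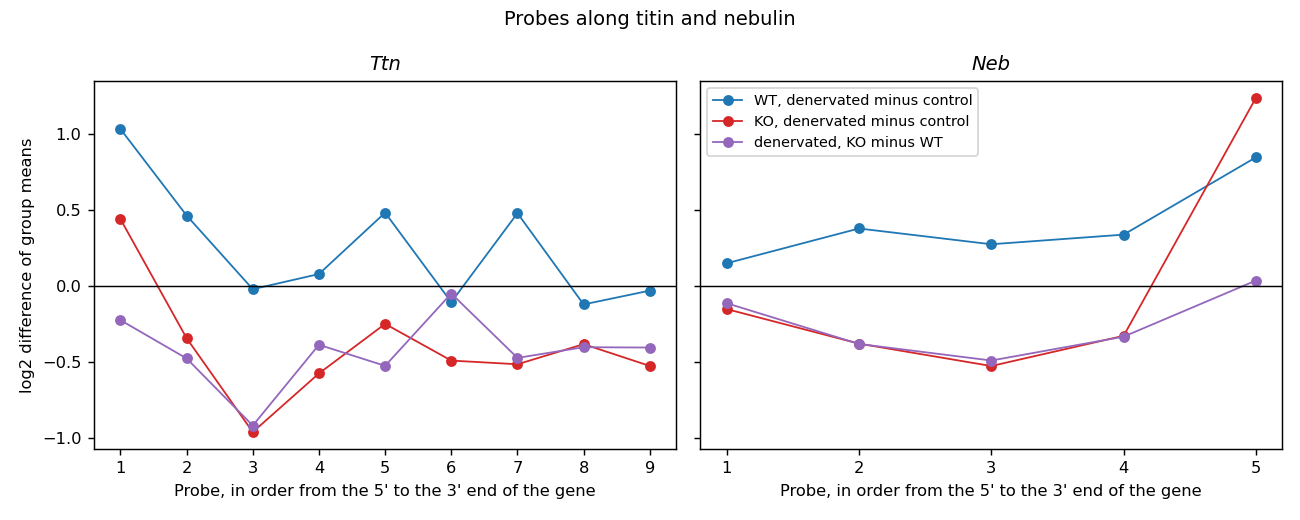
Log2 difference of group means at each kept probe of Ttn (9 probes) and Neb (5 probes), in order from the 5′ to the 3′ end, for denervation in WT (blue), denervation in KO (red) and KO against WT in denervated muscle (purple). The KO line lies below the WT line at every probe but the last of Neb, and the first probe of Ttn is the highest of that gene in both genotypes.

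Of the 12 Z-disc members tested, 3 rose and 4 fell in WT, and 2 rose and 8 fell in KO. Actn2, alpha-actinin of all fibres, had levels of 6.43, 6.78 and 6.53 in WT control, 6.82, 6.80 and 6.39 in WT denervated, 6.64, 6.98 and 6.90 in KO control and 6.18, 5.30 and 5.71 in KO denervated muscle. WT arrays overlapped (0.09 ± 0.22), while KO denervated arrays were all below KO controls (-1.11 ± 0.22, adjusted p = 0.00188). Actn3, alpha-actinin of fast fibres, had levels of 8.51, 8.76 and 9.06 in WT control, 8.27, 8.89 and 8.56 in WT denervated, 8.80, 8.78 and 8.98 in KO control and 7.95, 7.96 and 8.43 in KO denervated muscle and fell in KO (-0.74 ± 0.20, adjusted p = 0.0120), with overlap in WT (-0.20 ± 0.20). Tcap, telethonin, which caps titin at the Z-disc, was called in neither (0.16 ± 0.30 and -0.63 ± 0.30).

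The calsarcins bind calcineurin, the calcium-dependent phosphatase. Myoz1, the fast-fibre calsarcin, had levels of 7.65, 7.96 and 8.12 in WT control, 6.74, 6.64 and 6.56 in WT denervated, 7.87, 8.23 and 7.99 in KO control and 5.53, 6.23 and 6.35 in KO denervated muscle. It fell without overlap in both genotypes (-1.27 ± 0.22 in WT and -1.996 ± 0.22 in KO, adjusted p = 0.000936 and 3.17e-05). Myoz2, the slow-fibre and cardiac one, had levels of 5.03, 4.88 and 5.23 in WT control, 5.33, 5.19 and 4.90 in WT denervated, 5.14, 5.39 and 5.15 in KO control and 4.65, 4.33 and 4.57 in KO denervated muscle. WT arrays overlapped (0.10 ± 0.16), and it fell in KO (-0.71 ± 0.16, adjusted p = 0.00408), but its dim second probe lay at 0.67 there, with overlapping arrays. Taking the mean of both probes ended the KO call (-0.02, adjusted p = 0.959). Myot, myotilin, which binds alpha-actinin and filamin, had levels of 7.06, 6.84 and 7.39 in WT control, 6.43, 6.66 and 6.33 in WT denervated, 7.24, 7.22 and 7.28 in KO control and 5.86, 6.50 and 6.19 in KO denervated muscle. It fell in both genotypes (-0.63 ± 0.19 and -1.06 ± 0.19, adjusted p = 0.0226 and 0.000942), the WT call ending when denervated array 1 or 3 or control array 3 of WT was dropped (adjusted p up to 0.0883, differences -0.75 to -0.48).

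The PDZ-LIM proteins did not move together. Ldb3, also known as ZASP or Cypher, which ties alpha-actinin into the Z-disc, had levels of 6.50, 6.85 and 6.73 in WT control, 5.53, 4.99 and 5.20 in WT denervated, 6.68, 6.96 and 6.75 in KO control and 4.58, 3.28 and 4.12 in KO denervated muscle. It fell in WT (-1.45 ± 0.28, adjusted p = 0.00202) and in KO (-2.80 ± 0.28, or 6.97-fold, adjusted p = 1.78e-05), with every denervated array below every control array of its genotype and every KO denervated array below the WT denervated ones. A second probe close to the first gave -1.40 and -2.68, and the remaining, more distant probe gave -0.17 and -1.14 with overlapping arrays. Pdlim5 had levels of 4.75, 4.92 and 5.38 in WT control, 4.57, 4.70 and 4.97 in WT denervated, 5.45, 5.42 and 4.97 in KO control and 4.43, 3.78 and 3.72 in KO denervated muscle and fell in KO (-1.30 ± 0.24, adjusted p = 0.00104), with overlap in WT (-0.27 ± 0.24). Taking the mean of its probes ended that call (-0.85, adjusted p = 0.0629). Pdlim3 rose: its levels were 6.77, 6.64 and 7.03 in WT control and 7.53, 8.27 and 8.44 in WT denervated muscle, a rise of 1.27 ± 0.37 (adjusted p = 0.0246). In KO its spot was marked as an outlier on 1 control and 1 denervated array, and the remaining levels of 7.43 and 7.02 against 7.29 and 8.77 overlapped (0.80 ± 0.46, adjusted p = 0.176). With quantile normalization Pdlim3 was called higher in KO too (1.29, adjusted p = 0.00804), on the same remaining arrays. A second Pdlim3 probe, well above background on all 12 arrays, gave 0.95 in WT without overlap and 0.17 in KO with overlap. The WT call of Pdlim3 ended when control array 1 or 2 or denervated array 2 or 3 of WT was dropped (adjusted p up to 0.0779, differences 1.09 to 1.54) and with slide as a fixed block (0.84, adjusted p = 0.0677).

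Flnc, filamin C, the muscle filamin that links actin to the membrane and gathers at damaged sarcomeres, rose. Its levels were 5.33, 5.49 and 5.48 in WT control, 6.84, 6.94 and 6.51 in WT denervated, 5.65, 6.03 and 5.83 in KO control and 6.46, 6.39 and 6.53 in KO denervated muscle. Denervated arrays were above controls in both genotypes, by 1.33 ± 0.15 or 2.51-fold in WT (adjusted p = 6.24e-05) and by 0.62 ± 0.15 or 1.54-fold in KO (adjusted p = 0.00627). All 4 of its probes were above 0 in both genotypes, from 0.37 to 2.03 in WT and from 0.12 to 2.35 in KO. In KO the denervated and control arrays overlapped at the probes that gave 0.40 and 0.12. The values of 2.03 and 2.35 came from a dim probe, well above background on 1 WT control and 2 KO control arrays. With normexp background correction the KO call of Flnc ended (0.57, adjusted p = 0.225). Capn3, calpain 3, a protease held on titin, had levels of 3.68, 3.68 and 3.92 in WT control, 2.54, 2.39 and 2.27 in WT denervated, 3.68, 3.86 and 3.57 in KO control and 1.79, 1.60 and 1.85 in KO denervated muscle. It fell 2.56-fold in WT and 3.88-fold in KO (-1.36 ± 0.14 and -1.96 ± 0.14, adjusted p = 3.13e-05 and 2.09e-06), with replicates close together. Its second, much dimmer probe gave 0.03 in WT and -0.53 in KO.

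Igfn1, a Z-disc protein with immunoglobulin and fibronectin domains, had the largest rise of all members. Its levels were -1.86, -1.10 and -1.24 in WT control and 5.04, 5.61 and 5.82 in WT denervated muscle, a rise of 6.89 ± 0.55, or 119-fold (adjusted p = 4.76e-06). In KO control muscle it was not well above background on any of the 3 arrays, with measured levels of -5.90, -4.71 and -3.98, whereas KO denervated arrays read 3.35, 1.33 and 3.002. Against the lowest signal well above background on each of those control arrays, Igfn1 was at least 94.9-fold higher in denervated KO muscle. The limma fit used the measured levels instead and gave a difference of 7.42 (adjusted p = 2.41e-06). Its single probe lies at chr1:137772217-137773116 (mm8).

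Among the assembly and repair genes, Xirp1 was the only member called in opposite directions. Xirp1 codes for Xin, an actin-binding repeat protein that is gathered at sites of muscle damage. Its levels were 2.92, 3.08 and 3.09 in WT control, 4.31, 3.85 and 4.14 in WT denervated, 3.42, 3.54 and 3.45 in KO control and 3.27, 1.72 and 2.84 in KO denervated muscle. In WT all denervated arrays were above all controls (1.07 ± 0.31, adjusted p = 0.0182), and in KO all denervated arrays were below all controls (-0.86 ± 0.31, adjusted p = 0.0399). The WT call ended when either array 1 of WT was dropped (adjusted p up to 0.0586, differences 0.97 to 1.20). The KO call ended without any array except WT denervated replicates 1 and 2 and KO denervated replicates 1 and 3 (adjusted p up to 0.0951, differences -1.19 to -0.41), and with the replicate number as a block (adjusted p = 0.0508). Its relative Xirp2 was called in neither genotype (0.28 ± 0.20 and -0.06 ± 0.20).

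Smyd1, a methyltransferase that helps myosin fold into thick filaments, had levels of 4.23, 3.71 and 4.40 in WT control, 2.86, 3.01 and 3.04 in WT denervated, 4.19, 3.67 and 4.29 in KO control and 2.38, 2.91 and 2.86 in KO denervated muscle. It fell in both genotypes without overlap (-1.14 ± 0.23 in WT and -1.33 ± 0.23 in KO, adjusted p = 0.00245 and 0.000694). Unc45b, the myosin chaperone that works with it, had levels of 5.90, 5.95 and 5.96 in WT control, 5.62, 5.80 and 5.38 in WT denervated, 5.88, 6.17 and 5.92 in KO control and 5.37, 5.75 and 5.61 in KO denervated muscle. It was not called in WT (-0.33 ± 0.15, adjusted p = 0.111) and fell in KO (-0.41 ± 0.15, adjusted p = 0.0467), a call that ended without any array except WT denervated replicates 2 and 3 and KO denervated replicate 2 (adjusted p up to 0.155, differences -0.50 to -0.31) and with slide as a fixed block (-0.34, adjusted p = 0.153). The replicate block ended it as well (adjusted p = 0.0550). Nrap, a scaffold of myofibril assembly, had levels of 7.38, 7.46 and 7.53 in WT control, 7.54, 7.88 and 7.47 in WT denervated, 7.47, 7.87 and 7.60 in KO control and 7.08, 7.16 and 7.21 in KO denervated muscle. WT arrays overlapped (0.17 ± 0.15), and KO denervated arrays lay below KO controls (-0.50 ± 0.15, adjusted p = 0.0191), but this direction turned with quantile normalization (0.18). It ended with slide as a fixed block (-0.41, adjusted p = 0.0776) and when denervated array 1 or control array 2 of KO was dropped (adjusted p up to 0.0751, differences -0.59 to -0.38).

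The next question is whether loss of Smad4 altered these genes while the nerve was intact. In control muscle 0 of 35 members were called by limma, against 0.00657% of all genes. At an unadjusted p under 0.05 there were 2 members, beside 4.05% of all genes: Flnc, higher in KO by 0.40 ± 0.15, and Igfn1, lower in KO. Igfn1 was detected on all 3 WT control arrays and on 0 of 3 KO control arrays, which makes it at least 6.10-fold lower in KO control muscle. The limma fit on the measured levels gave it an adjusted p of 0.125. The median difference of the 35 members was 0.12, with 12 below 0, beside a median of -0.01 and 52.8% below 0 over all genes. The 95% intervals were wide: that of Acta1 ran from -0.44 to 0.85 and that of Actn2 from -0.23 to 0.75. With 3 arrays per group, differences within these intervals were not excluded.

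In denervated muscle the KO arrays were lower for most members. Of 35 members, 33 lay below 0 (51.2% of all genes did), with a median of -0.37 beside -0.01 over all genes. With quantile normalization or the series matrix 26 of 35 lay below 0. Most members are bright, and the 658 genes with a mean level of 5 or more had a median of -0.18 here with the 75th percentile and -0.01 with quantile normalization. limma called 4 of them, all lower, against 2.19% of all genes in either direction and 1.23% lower: Igfn1, Xirp1, Ldb3 and Capn3. Igfn1 read 2.56 ± 1.08 (mean ± SD, n = 3) in KO against 5.49 ± 0.41 in WT, 7.62-fold lower (-2.93 ± 0.55, adjusted p = 0.0195). Xirp1 read 2.61 ± 0.80 against 4.10 ± 0.23, 2.82-fold lower (-1.49 ± 0.31, adjusted p = 0.0311). Ldb3 read 3.99 ± 0.66 against 5.24 ± 0.27, 2.38-fold lower (-1.25 ± 0.28, adjusted p = 0.0456). Capn3 read 1.75 ± 0.13 against 2.40 ± 0.13, 1.58-fold lower (-0.66 ± 0.14, adjusted p = 0.0380). For each of the 4, no KO denervated array reached the lowest WT denervated array. Within slides 1 and 4, the only ones that held denervated arrays of both genotypes, all 4 were lower in KO as well, which the lack of overlap had already fixed. On mm8 the probes lie at chr9:119862804-119862863 (Xirp1), chr14:33390595-33390654 (Ldb3) and chr2:120195541-120195918 (Capn3). Which exon or untranslated region they fall in was not looked up, as no annotation of that build was used here.

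These 4 calls sat close to the threshold. With quantile normalization the calls of Ldb3 (-1.13, adjusted p = 0.122) and Xirp1 (-1.41, adjusted p = 0.0723) ended, and the series matrix ended the same ones (adjusted p = 0.106 and 0.0639). With the replicate number as a block, the calls of Ldb3 (adjusted p = 0.0649) and Capn3 (0.0698) ended, and with slide as a fixed block that of Capn3 did (0.0585). Fitting only the 6 denervated arrays called 0 members. Without WT denervated replicate 2 or 3 the count was 0, without denervated array 1 or control array 2 of WT or denervated array 2 or 3 of KO it was 1, and without control array 1 of either genotype it was 2. Igfn1 lost its call without WT denervated replicate 2 or 3 or KO denervated replicate 2 (adjusted p up to 0.0774, differences -3.32 to -2.31). Xirp1 lost it without any 1 of the WT denervated arrays, control array 2 of WT or denervated array 3 of KO (up to 0.0975, differences -1.83 to -1.05). Ldb3 kept it only without KO denervated replicate 1 (up to 0.138, differences -1.54 to -0.89). Capn3 kept it only without WT control replicate 3 or KO control replicate 2 or 3 (up to 0.132, differences -0.72 to -0.58). KO denervated replicate 2 was the lowest of its group for Igfn1, Xirp1, Ldb3 and Capn3, and without it the differences of Ldb3, Capn3, Igfn1 and Xirp1 were -0.89, -0.58, -2.31 and -1.05.

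**Figure D4:**
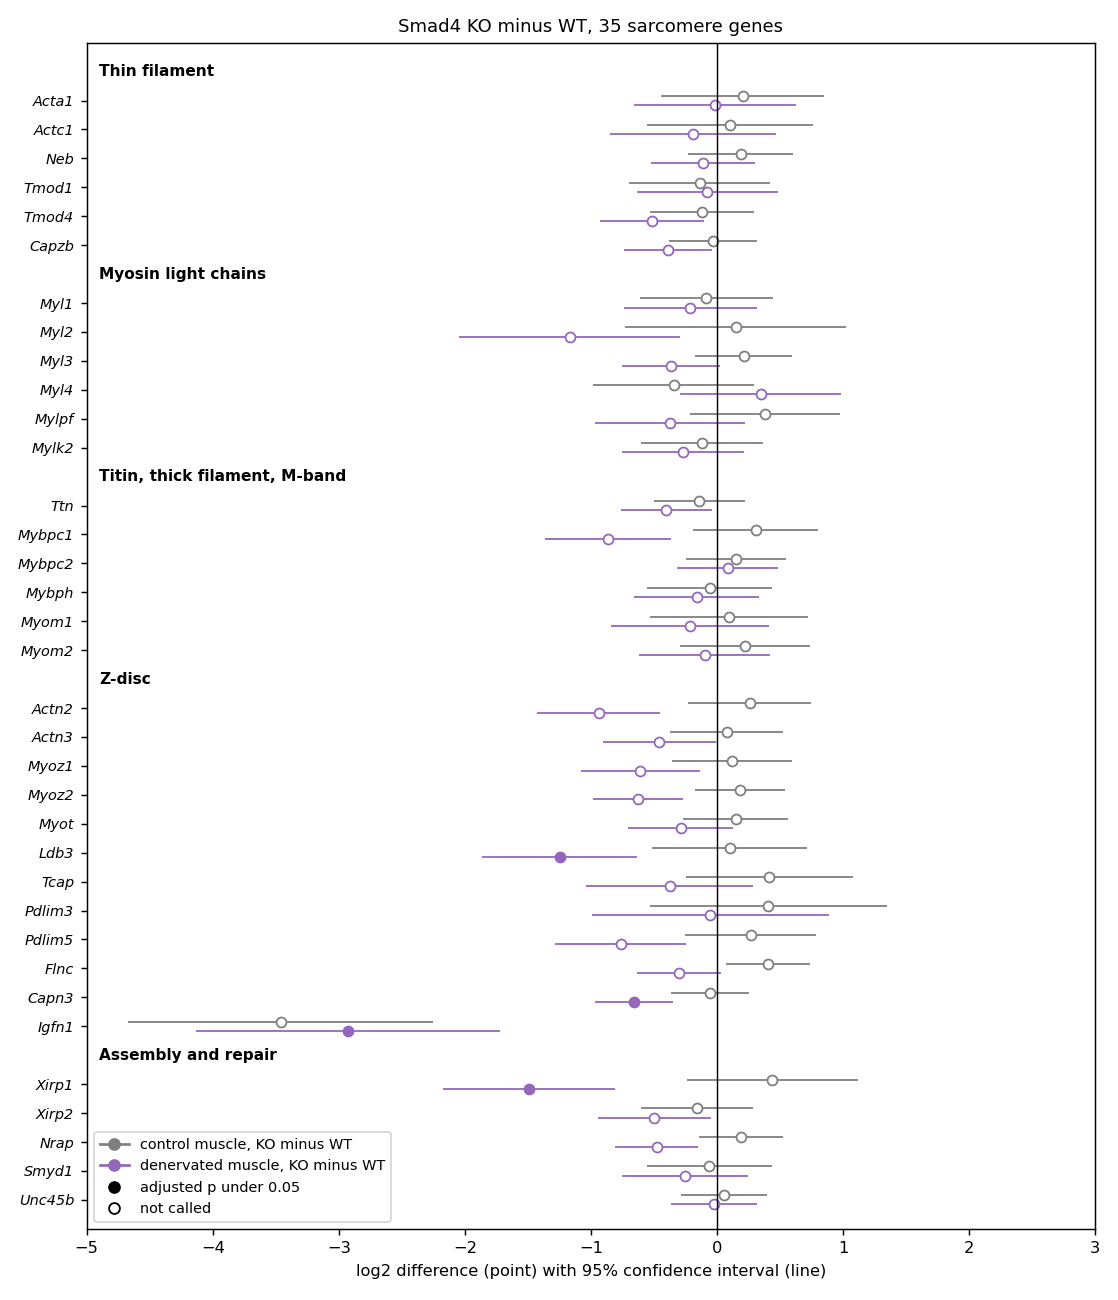
Difference between KO and WT for the 35 tested members, as a log2 difference (x axis) with its 95% confidence interval, in control muscle (grey) and denervated muscle (purple); filled points have an adjusted p under 0.05. The purple points lie left of 0 for 33 of 35 members, while the grey points lie on both sides of 0 with Igfn1 far to the left; in KO control muscle Igfn1 was below the detection limit.

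Several members that missed the threshold had differences of similar size. Actn2 was lower in KO denervated muscle by -0.94 ± 0.22 (adjusted p = 0.0571), Mybpc1 by -0.86 ± 0.23 (adjusted p = 0.0833), Myoz2 by -0.63 ± 0.16 (adjusted p = 0.0781) and Pdlim5 by -0.76 ± 0.24 (adjusted p = 0.136). In these 4 the KO and WT denervated arrays did not overlap. The same held for members with smaller differences, such as Ttn (-0.40), and the share of all genes without overlap was not counted. Myl2 had a larger difference (-1.17 ± 0.40, adjusted p = 0.176), but its arrays overlapped. At an unadjusted p under 0.05 there were 16 members, all lower, beside 16.3% of all genes. Members whose WT and KO denervated group means were nearly the same included Acta1 (95% interval -0.66 to 0.63), Myom2 (-0.62 to 0.42), Mybpc2 (-0.32 to 0.48) and Unc45b (-0.36 to 0.32). For Acta1 the WT mean includes the 1 low array (6.997). The other WT denervated arrays (8.42 and 8.25) lay above every KO denervated array (7.76, 7.92 and 7.94).

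The denervation response itself was compared between genotypes as an interaction, the response in KO minus that in WT. limma called 0 of 35 members, against 0.184% of all genes. At an unadjusted p under 0.05 there were 12, all with a more negative response in KO, beside 9.43% of all genes in either direction. Of the members, 32 of 35 lay below 0 with a median of -0.40, beside 48.5% and 0.01 over all genes. With quantile normalization 23 of 35 lay below 0 with a median of -0.18, and the 658 bright genes had a median of -0.21 with the 75th percentile and 0.00 with quantile normalization. The most negative was Xirp1 at -1.93 ± 0.44 (adjusted p = 0.141), followed by Ldb3 at -1.35 ± 0.40 (0.264), Myl2 at -1.32 ± 0.56 (0.496), Actn2 at -1.20 ± 0.31 (0.201) and Mybpc1 at -1.17 ± 0.32 (0.221). Without KO denervated replicate 1, Xirp1 was called (-2.27, adjusted p = 0.0369). This comparison and the one in denervated muscle share the denervated arrays of both genotypes, so their values are not separate evidence.

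The scaling of the arrays mattered for these genes because most of them are bright: 30 of 35 lay above the 90th percentile of mean level over all genes tested, and 15 above the 99th. With quantile normalization in place of the 75th percentile, the members' median difference became -0.04 in WT, -0.43 in KO and -0.13 for KO against WT in denervated muscle. With the deposited series matrix, the authors' processed values, these medians were 0.02, -0.47 and -0.14, so the WT median changed sign. Calls in KO then split as 5 higher and 15 lower (quantile) or 6 higher and 15 lower (series matrix), where the 75th percentile gave 3 and 24. In WT the split was 6 and 11, or 7 and 9, in place of 5 and 13. Under both, Acta1, Actn3, Mybpc1, Myl3, Mylpf, Myom2, Unc45b and Xirp1 were no longer called lower in KO. Capzb and Myom2 were no longer called lower in WT under both, and Myom1 and Myot lost their WT calls with the series matrix. Acta1 was at -0.07 and Actn3 at -0.11 with quantile normalization, and Nrap turned to 0.18 and 0.23. In the 658 genes with a mean level of 5 or more, a cut chosen after the values were seen that holds 26 members, the median difference in KO was -0.31 with the 75th percentile and 0.06 with quantile normalization, beside -0.86 and -0.22 for those 26 members. The falls of Actc1, Tmod4, Myl2, Mylk2, Mybpc2, Myoz1, Ldb3, Capn3 and Smyd1 and the rises of Myl4 and Igfn1 stayed called in both genotypes under every alternative that could be fitted.

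**Figure D5:**
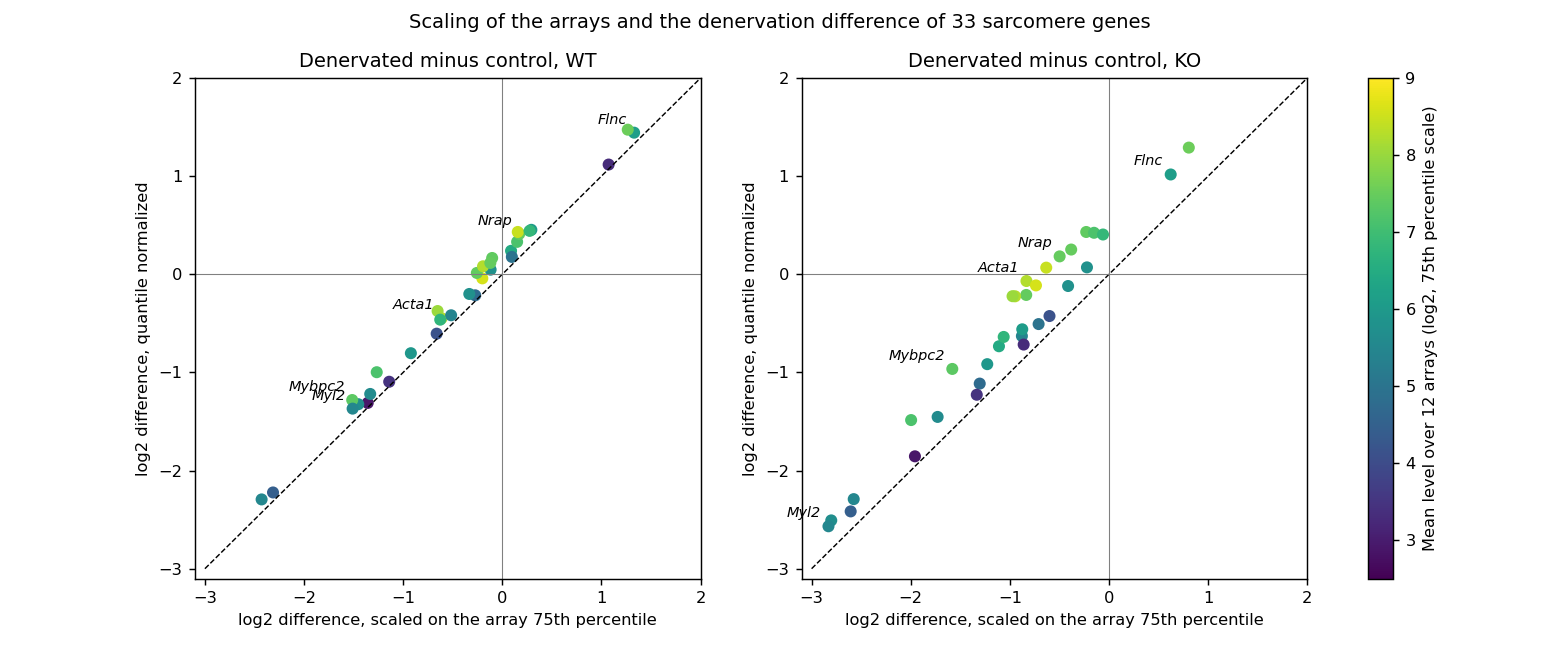
Denervation difference of 33 members (Igfn1 and Myl4 lie outside the axes) scaled on the array 75th percentile (x axis) and with quantile normalization (y axis), both log2, in WT and KO; colour gives the mean level over 12 arrays and the dashed line marks equal values. Bright members lie farther above the dashed line than dim ones, more so in KO.

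Of the members, 17 had more than 1 kept probe, which allowed a check within the same arrays. The sign was the same at all probes of a gene for 15 of 17 genes in WT denervation, 14 of 17 in KO denervation, 13 of 17 for KO against WT in denervated muscle and 8 of 17 in control muscle. The exceptions for denervation were Capn3 and Ttn in WT, and Myoz2, Neb and Ttn in KO. Within the slides that held both groups, the sign was that of the pooled difference for all 18 called members in WT (slide 1) and for all 27 in KO (slides 3 and 4). The arrays of these called members did not overlap between the groups, so this sign was fixed in advance and is no separate check.

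Other genes of the same structures were read from lists drawn up for the purpose, and their counts are to be read against the 18.7% of all genes that rose and 20.6% that fell in WT, and the 23.7% and 23.2% in KO. A count near those shares is no result about a list. Of 14 other thin-filament genes, 3 fell and 0 rose in WT, the falls being near the share of all genes, and 5 fell and 1 rose in KO (median differences -0.21 and -0.50). Capza2, the alpha subunit partner of Capzb, fell in both genotypes (-0.73 in WT and -0.76 in KO, adjusted p = 0.000950 and 0.000572), and the tropomyosin Tpm1 fell in KO (-0.63, adjusted p = 0.00187). Of 13 other thick-filament and M-band genes, 5 rose and 0 fell in WT, and 5 rose and 2 fell in KO (median differences 0.05 and -0.34). Myom3, the myomesin of intermediate fibres, rose by 2.95 in WT and 2.71 in KO (adjusted p = 1.21e-05 and 1.67e-05), while Myom1 and Myom2 fell. Myh3, embryonic myosin, rose by 4.80 and 4.54 (adjusted p = 8.75e-05 and 9.86e-05), as its embryonic light chain Myl4 did.

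Of 27 other Z-disc genes, 6 rose and 9 fell in WT, 6 rose and 12 fell in KO, and 4 were lower in KO than in WT denervated muscle, where 1.23% of all genes were. The rises in both genotypes were near the share of all genes, and the median differences were -0.05 in WT and -0.45 in KO. Ankyrin repeat protein Ankrd1 rose by 6.19 in WT and 4.77 in KO (adjusted p = 2.46e-07 and 1.14e-06) and was lower in denervated KO than WT muscle by -1.45 (adjusted p = 0.0380). Csrp3, the muscle LIM protein, rose by 2.75 and 1.84 and was also lower in denervated KO muscle (-0.78, adjusted p = 0.0467). Pdlim7, a PDZ-LIM relative of Ldb3, fell in both genotypes (-1.43 in WT and -2.13 in KO, adjusted p = 0.000120 and 5.93e-06). The chaperone Cryab and the kinase Speg were lower in denervated KO than WT muscle (-0.96 and -1.12, adjusted p = 0.0235 and 0.0206).

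Of 20 assembly and chaperone genes, 6 rose and 3 fell in WT, 3 rose and 4 fell in KO, and 3 were lower in denervated KO than WT muscle. The falls were near or below the share of all genes, and the median differences were 0.31 in WT and -0.04 in KO. The small heat shock protein Hspb8 rose in both genotypes (1.91 in WT and 1.06 in KO, adjusted p = 9.11e-06 and 0.000413). Its relative Hspb1 rose in WT (1.52, adjusted p = 0.000395) and was at 0.10 in KO (adjusted p = 0.754). Hspb7, Hspb8 and Hspb1 were lower in denervated KO muscle (-1.61, -0.87 and -1.001, adjusted p = 0.0225, 0.0230 and 0.0482). Klhl31, a muscle ubiquitin ligase adaptor, fell in both genotypes (-2.004 and -2.08, adjusted p = 3.13e-06 and 2.01e-06). Among 18 actin, myosin and filamin genes of other cells, 3 rose and 6 fell in WT and 4 rose and 6 fell in KO (median differences -0.47 and -0.13). The light chain Myl12a rose by 3.83 in WT and 2.65 in KO, and its interaction was called (-1.18, adjusted p = 0.0316).

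Among 17 regulators of sarcomere genes, 5 rose and 8 fell in each genotype, the rises in KO being near the share of all genes (median differences -0.08 in WT and -0.21 in KO). Myog, the myogenic factor of differentiation, rose by 4.50 in WT and 3.85 in KO (adjusted p = 5.72e-06 and 1.34e-05), and Mef2a rose by 1.30 and 1.47 (adjusted p = 4.84e-05 and 3.58e-05). Srf, which codes for the factor that binds CArG boxes, fell in both genotypes (-1.12 in WT and -1.37 in KO, adjusted p = 0.000338 and 6.10e-05). Abra, an activator of the Srf coactivators, fell in both genotypes (-1.30 in WT and -2.44 in KO, adjusted p = 0.00236 and 2.70e-05) and was lower in denervated KO than WT muscle (-1.28, adjusted p = 0.0277). Mrtfb, which codes for a coactivator of Srf, went the other way in WT and rose by 1.40 (adjusted p = 0.000189). Its levels were low, with means of -4.02 in WT control and -2.63 in WT denervated muscle. Vgll2, a cofactor of muscle TEAD factors, fell in both genotypes (-0.67 in WT and -2.66 in KO, adjusted p = 0.0418 and 7.94e-06), was lower in denervated KO muscle (-1.92, adjusted p = 0.00223) and had a called interaction (-1.99, adjusted p = 0.0485).

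The markers of cell types are read against the same shares of all genes. Of the 10 skeletal fibre markers, 3 fell in WT and 7 in KO, none rose, and all 10 lay below 0 for denervated KO against WT muscle (-0.59 to -0.21). Their median differences were -0.14 in WT, -0.87 in KO and -0.41 between the denervated genotypes, beside -0.26, -0.86 and -0.37 for the members. All 10 were kept, with a summed level of 11.1 to 11.5 in WT control, 10.9 to 11.4 in WT denervated, 11.5 to 11.7 in KO control and 10.52 to 11.03 in KO denervated muscle. Of the heart markers 3 of 6 were tested, and Nppa, Myl7 and Mybpc3, which define cardiac muscle, were not. Endothelial markers fell (4 of 6 in WT, 5 of 6 in KO), with summed levels of 3.96 to 4.33 in WT control, 2.63 to 3.38 in WT denervated, 4.12 to 4.27 in KO control and 3.05 to 3.13 in KO denervated muscle. Schwann cell markers fell for 4 of 6 in each genotype, with summed levels of 4.01 to 4.74, 1.97 to 2.49, 3.85 to 4.95 and 2.52 to 2.72 in the same order of groups. Smooth muscle and pericyte markers fell for 5 of 9 in WT and 4 of 9 in KO, with summed levels of 7.99 to 8.38, 7.43 to 7.67, 8.14 to 8.39 and 6.77 to 7.09. All 3 erythrocyte markers tested fell in both genotypes, with summed levels of 5.12 to 5.68, 3.49 to 4.60, 4.21 to 5.30 and 2.38 to 3.61. Macrophage markers rose for 1 of 6 in WT, near the share of all genes, and for 3 of 6 in KO, with summed levels of 4.67 to 5.37, 5.30 to 5.62, 4.45 to 5.72 and 5.47 to 6.09. Between denervated KO and WT muscle no marker of any of these types was called. The part of these cells in the members' values was not tested.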

How the data were processed

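RNA of 12 gastrocnemius muscles was hybridised to 1-colour Agilent mouse arrays, 3 per group. The deposited scanner files, made with Feature Extraction 10.7.3.1 per the file headers (10.5.1.1 per the submitters' processing notes), hold the processed signal intensity, which is background-subtracted per the file headers. The deposited series matrix holds the authors' processed intensity values, whose normalization is not given in the sources used here; its log2 was used as an alternative. Each array had 43379 spots for 41174 probes, and the number of arrays limits the precision.

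From the deposited intensities, log2 values were computed and each array's 75th percentile was subtracted. Kept were the 22524 probes that all 3 arrays of some group showed well above background, outlier spots were left out, and the brightest kept probe stood for its gene. Probes were named by accession (24367), symbol (6307) or synonym (2425) through RefSeq, and 8075 kept the file's name. Of 72 member probes 69 were kept. A model of 4 group means over all 12 arrays, with 8 residual degrees of freedom, was fitted in limma 3.58.1 under R 4.3.3 by lmFit, moderated by eBayes and tested two-sided, with Benjamini-Hochberg adjustment over all 15226 genes in each of 5 comparisons; all p-values printed come from such fits. The fit was tested on simulated data. An exact permutation test of 3 arrays against 3 cannot go below p = 0.1.

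Members and lists were chosen with earlier results of these data known. Members called in a comparison, or whose probes disagree in sign, are given with each array's value; of every other list at most 4 genes per comparison are named, those with the smallest adjusted p. Replicates are said to be different animals. Same-numbered WT arrays deviated together (r = 0.305, 0.107 and 0.232 between control and denervated), which met the rule for pairs, while KO arrays (0.0899, 0.0153 and 0.175) did not; no label says what a number marks. Alternatives changed the scaling, background correction, filter, probe choice, values, slide or replicate block, the arrays fitted, or left out 1 array. Promoters were matched by symbol to RefSeq, GRCm38.p6.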

Additional observations from a re-analysis of the deposited data

Results flagged for a closer look

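Of the probes of nebulin and titin that lay above 0 in WT denervation and below 0 in KO denervation (4 of 5 for Neb and 4 of 9 for Ttn), 1 of each gene did so with no overlap between denervated and control arrays in either genotype. Both were picked for this pattern, and how many of all probes show it was not counted. At Neb probe A_51_P218535 every WT denervated array lay above every WT control array (0.27) and every KO denervated array below every KO control array (-0.53), so that the response in KO minus that in WT was -0.80. At Ttn probe A_52_P454295 the values were 0.48 in WT and -0.51 in KO, a difference of -0.99. Neither probe is the brightest of its gene, so the difference between the genotypes was not tested at these probes. Their values rest on scaling by the 75th percentile. At the brightest probes, quantile normalization moved the KO denervation difference from -0.15 to 0.42 (Neb) and from -0.38 to 0.25 (Ttn). Its effect at the flagged probes was not tested.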

How the results depend on the processing

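Of the calls, 12 of 18 in WT denervation, 15 of 27 in KO denervation and 0 of 4 between denervated KO and WT muscle kept their direction and their side of the threshold under every alternative run. The number of members called stayed between 13 and 19 in WT and between 20 and 28 in KO. With slide as a fixed block the number was 14 in WT and 26 in KO. Between denervated KO and WT muscle, limma called 4 members with all arrays, 2 with quantile normalization, 1 with normexp, 1 with no filter on dim probes, 2 with the mean of probes, 2 with the series matrix, 7 with slide as a random block and 0 when only the denervated arrays were fitted. With the replicate block, 2 members were called there; the block also ended the calls of Myom2 in WT and of Xirp1 and Unc45b in KO denervation, and no other denervation call. Leaving out 1 array gave 0 to 6 members there and 0 to 1 for the interaction. Nrap turned from -0.50 in KO denervation to 0.18 (quantile) and 0.23 (series matrix); the cause was not tested. Over all genes, normexp called 1909 genes in WT denervation, 2719 in KO denervation and 25 between denervated genotypes, in place of 5979, 7145 and 333, and for the last no filter gave 203 and fitting only the denervated arrays 126. The 1 gene called between control muscles became 0 to 5, and the 28 called for the interaction 0 to 42. Signal over background limits Igfn1 in KO control muscle and the dim second probes.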
